A study of Mus musculus with 2 samples.

Results

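The genes described here encode the pore-forming and accessory subunits of high-voltage-activated calcium channels and of voltage-gated sodium channels, in single cells of the mouse habenula, a small epithalamic structure divided into medial (MHb) and lateral (LHb) nuclei. They were all symbols of the deposited gene list that start with Cacna1, Cacna2d, Cacnb or Cacng, without the T-type genes Cacna1g, Cacna1h and Cacna1i, and all symbols made of Scn, digits and a or b. The rule uses names only and found 37 of 28692 genes: 7 calcium α1, 4 α2δ, 4 β and 8 γ subunits, 10 sodium α subunits and 4 sodium β subunits. Of these, 29 had at least 20 unique molecular identifiers (UMIs, counted molecules) in the cells used and are called measured. The other 8 had 0 to 11 UMIs, among them Cacna1s with 11, Cacng6 with 10, and Scn4a, Scn10a and Scn11a with 0.

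A high-voltage-activated calcium channel is built on 1 α1 subunit, which forms the pore and names the current (Cacna1a the P/Q type, Cacna1b the N type, Cacna1e the R type, Cacna1c and Cacna1d the L type). A β subunit and an α2δ subunit help bring the pore to the membrane and tune its gating, and these channels couple spikes to transmitter release and to calcium entry in dendrites and somata. Most brain γ subunits are better known as TARPs, which carry AMPA receptors to synapses. Sodium channel α subunits carry the upstroke of the action potential, and the β subunits, which are single-pass membrane proteins, modulate them and bind other cell surface proteins. MHb and LHb neurons are known to be spontaneously active, and LHb neurons can fire bursts.

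The data are 2 droplet libraries with 3' chemistry, 1 per group, each made from habenula punches of 4 pooled adult male C57BL/6 mice aged 50 to 55 days. All mice were handled for 7 days. The foot shock mice had also been placed in the shock chamber beforehand and received 30 shocks of 0.3 mA and 1 s within 60 min, after which tissue was taken, while control mice came straight from the home cage, so shock and chamber exposure cannot be told apart. All tissue was cut and digested with inhibitors of transcription and translation, receptor blockers and tetrodotoxin, itself a sodium channel blocker. With 1 library a group there is no replicate check and no test. The intervals cover counting error only, at 95%.

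The libraries held 23095501 (control) and 22189951 (foot shock) UMIs, and 4875 and 4649 cells with median totals of 2411 and 2688 UMIs were assigned to classes. Of the kept barcodes, 32 occurred in both libraries. MHb-like neurons numbered 1205 and 1609, LHb-like neurons 663 and 657, thalamus-like neurons 130 and 58, and other neurons, which met the marker rule of none of these, 599 and 419. Oligodendrocyte precursor-like (OPC-like) cells numbered 244 and 106 and were shallow, with medians of 1200 and 1183 UMIs. In OPC-like cells 7 of 7 precursor markers lay above free RNA in both libraries, in MHb-like cells 6 of 7 MHb markers, and in LHb-like cells 7 of 8 LHb markers. Epithelial-like cells, 503 in 2 clusters, occurred in the foot shock library alone, with 0 in control. The background was free RNA, taken as the sum over barcodes of 10 to 100 UMIs each.

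Each level is a CPM value: a gene's UMIs in a class and library, divided by that class's total there and multiplied by 1e+06. The 3' tags count a molecule once whatever its length, but genes differ in how well their 3' end is caught, so each gene is compared between classes rather than with other genes. No other gene of the deposited list overlapped a member on the same strand in the GENCODE vM21 annotation. Most members were neuronal. Summed over members, MHb-like neurons held 4238 (control) and 3994 (foot shock) CPM, LHb-like neurons 3761 and 3286 CPM, and oligodendrocyte-like cells 298 and 305 CPM. Of the 29 measured genes, 17 lay above free RNA in MHb-like, 22 in LHb-like, 23 in thalamus-like and 26 in other neurons, against 8 in OPC-like and 2 in oligodendrocyte-like cells. Values in pairs are control first, then foot shock. Of the 29 measured genes, 22 had the same highest class in both libraries: thalamus-like neurons for 10, MHb-like neurons for 5, other neurons, OPC-like cells and mural-like cells for 2 each, and LHb-like neurons for 1.

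**Figure D1:**
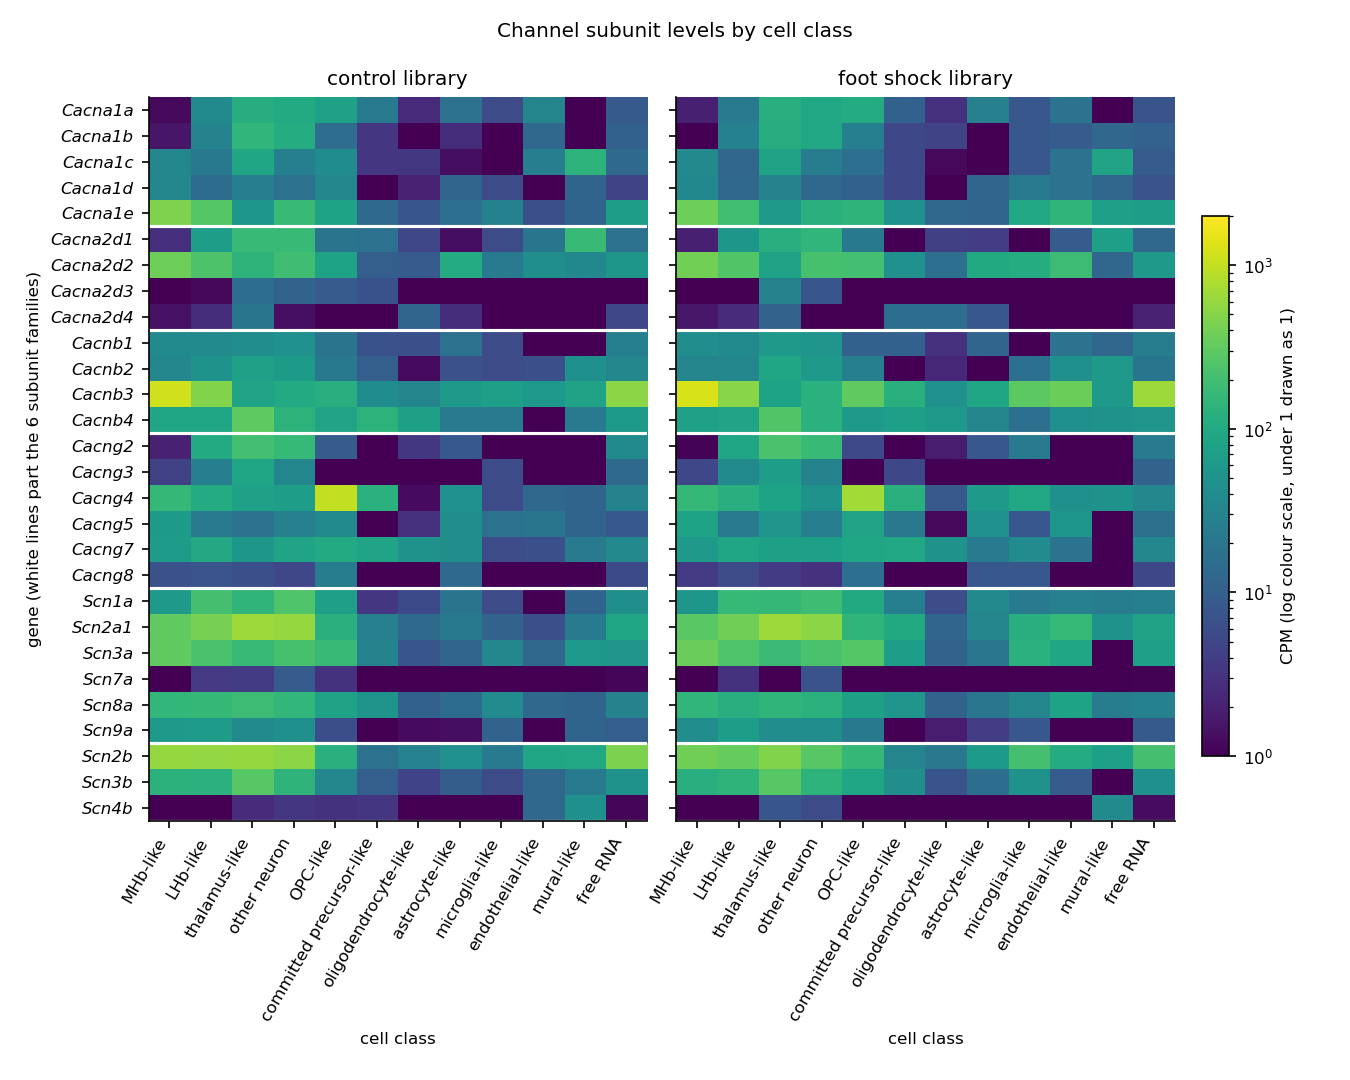
Level of measured subunit genes (28 rows, grouped by family) in 11 cell classes and free RNA (columns), as CPM on a log colour scale, with the control library at left and the foot shock library at right. Cacnb3 is brightest in MHb-like neurons (1163 and 1245 CPM), Cacng4 in OPC-like cells (986 and 699 CPM), and Cacna1a, Cacna1b, Cacna2d1 and Cacng2 are dark in MHb-like neurons in both libraries.

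MHb-like and LHb-like neurons differed most in 4 genes that were close to absent in the MHb. These were the P/Q-type pore Cacna1a, the N-type pore Cacna1b, the α2δ subunit Cacna2d1, a binding site of gabapentin, and the TARP Cacng2 (stargazin). In LHb-like neurons Cacna1a, Cacna1b and Cacna2d1 were uneven between subclusters. In the other direction MHb-like neurons held more of the β subunit Cacnb3, the L-type pore Cacna1d and the TARP Cacng5. Counting a gene only when it differed at least 2-fold in the same direction in both libraries, 3 of 26 members with enough UMIs were higher in MHb-like neurons and 7 were lower. Over all 12548 genes measured in this comparison, 5.13% were higher and 8.58% lower by the same rule, and the median log2 ratio was -0.23 over the members and -0.12 over all genes. The classes are clusters of these same cells, so the ratios are descriptions. The members had been kept out of the clustering features.

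Among the α1 genes, Cacna1a (ENSMUSG00000034656, chr8:84388440-84640246, plus strand) stood at 1.20 and 1.97 CPM in MHb-like neurons, from 6 and 11 UMIs. In LHb-like neurons it stood at 37.2 and 23.7 CPM. The ratio of MHb-like to LHb-like was 0.0322 (0.0115 to 0.0727) in control and 0.0832 (0.0392 to 0.161) in foot shock. Cacna1b (chr2:24603887-24763152, minus strand) stood at 1.60 and 0.897 CPM in MHb-like and 30.3 and 28.1 CPM in LHb-like neurons, ratios of 0.0529 and 0.0319. Both genes lay below their free RNA levels (8.60 and 7.26 CPM for Cacna1a, 10.5 and 10.9 CPM for Cacna1b) in MHb-like neurons and above them in LHb-like neurons.

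The R-type pore Cacna1e (chr1:154390731-154884501, minus strand) went the other way but did not reach 2-fold. It stood at 458 and 378 CPM in MHb-like neurons and at 270 and 202 CPM in LHb-like neurons, ratios of 1.70 (1.56 to 1.85) and 1.87 (1.69 to 2.07). Cacna1d, an L-type pore that opens at comparatively negative voltages, stood at 34.0 and 34.8 CPM in the MHb and 14.7 and 12.7 CPM in the LHb, ratios of 2.31 and 2.73. Cacna1c, the other L-type pore found, stood at 32.6 and 35.3 CPM against 21.7 and 12.3 CPM. Its ratio was 2.87 in foot shock (1.93 to 4.43) but below 2-fold in control (interval 1.10 to 2.07), so it was not counted.

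Of the α2δ subunits, Cacna2d1 (chr5:15934691-16374511, plus strand) stood at 2.80 and 1.97 CPM in MHb-like and 70.6 and 55.8 CPM in LHb-like neurons, ratios of 0.0397 (0.0213 to 0.0683) and 0.0354 (0.0172 to 0.0655). Cacna2d2, its relative, stood at 374 and 400 CPM against 236 and 256 CPM, ratios of 1.58 and 1.56. Among the β subunits, 1 differed by the 2-fold rule. Cacnb3 (chr15:98630840-98644529, plus strand) stood at 1163 and 1245 CPM against 476 and 526 CPM, ratios of 2.45 (2.30 to 2.60) and 2.37 (2.23 to 2.52). Among all classes, Cacnb3 lay above free RNA in both libraries in MHb-like neurons alone. Cacnb1 and Cacnb4 lay between 0.914 and 1.09 as ratios, and all of their intervals included 1. Cacnb2 was at 0.678 in control and 0.939 in foot shock. Cacna2d4 had 14 and 15 UMIs over both classes, too few to place it.

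Among the TARPs and their relatives, Cacng2 (chr15:77991748-78120028, minus strand) had 10 and 6 UMIs in MHb-like neurons, 2.00 and 1.08 CPM, against 104 and 86.9 CPM in LHb-like neurons. The ratios were 0.0192 (0.00912 to 0.0359) and 0.0124 (0.00449 to 0.0274). Cacng3, the nearest relative of Cacng2, stood at 4.40 and 5.02 CPM against 26.0 and 37.3 CPM, ratios of 0.169 and 0.135. Cacng5 stood at 62.6 and 83.0 CPM in the MHb against 22.1 and 23.3 CPM in the LHb, ratios of 2.83 and 3.57. Cacng4 was at 1.48 and 1.37, Cacng7 at 0.654 and 0.676, and Cacng8 at 0.896 and 0.628 with intervals that held 1.

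For the sodium channels, Scn1a (chr2:66270778-66440840, minus strand), known from Dravet syndrome and from fast-spiking cells, stood at 61.6 and 55.9 CPM in MHb-like neurons and at 215 and 165 CPM in LHb-like neurons, ratios of 0.286 (0.248 to 0.330) and 0.339 (0.291 to 0.395). Closer between the classes were Scn3a 1.40 and 1.43, Scn2a1 (Scn2a in current annotation) 0.746 and 0.745, Scn3b 1.03 and 0.841, Scn2b 1.03 and 1.15, and Scn8a 0.953 and 1.23 as ratios of MHb-like to LHb-like CPM. Scn9a, best known from pain-sensing neurons, was at 0.913 in control and 0.604 in foot shock. Scn3a, Scn2a1, Scn1a, Scn9a and Scn7a form a cluster of neighbours on chromosome 2, so neighbours on the chromosome had ratios on both sides of 1.

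**Figure D2:**
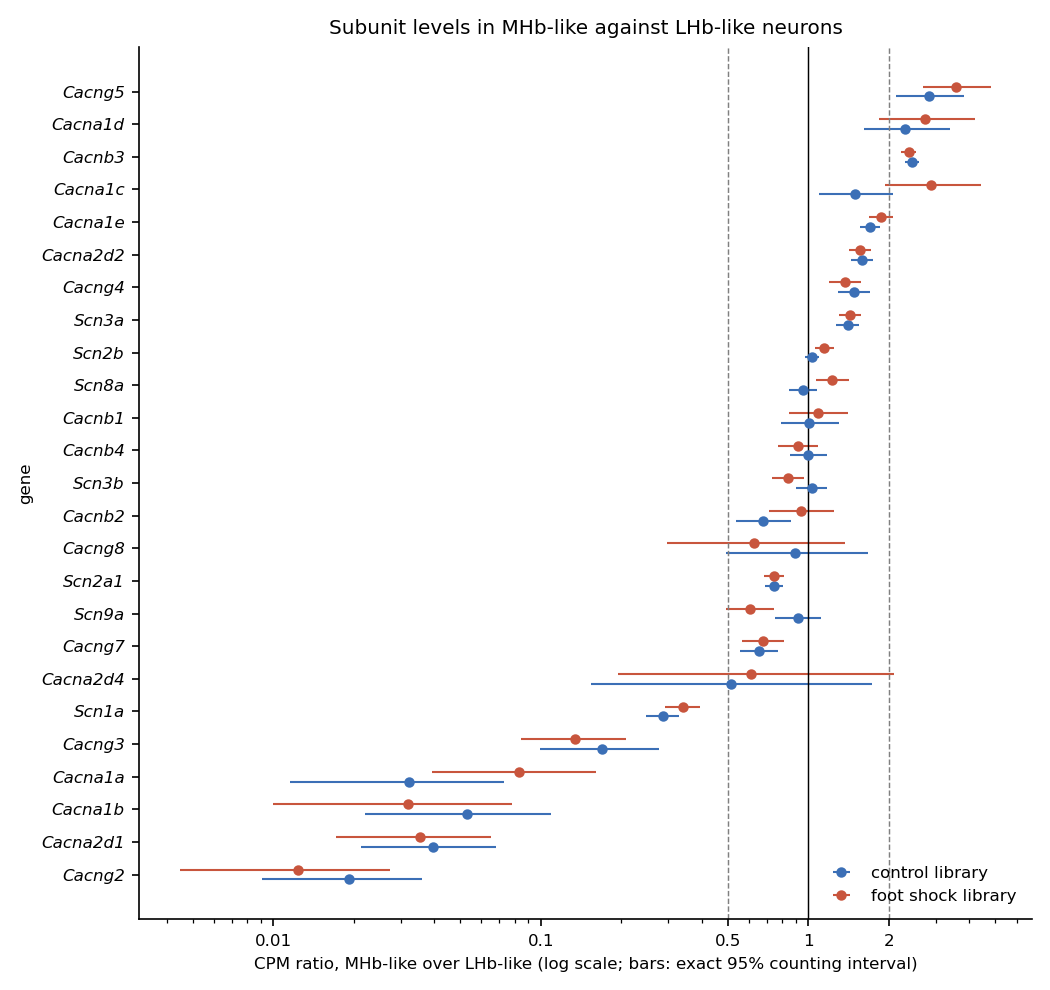
Ratio of CPM in MHb-like over LHb-like neurons (log axis) for 25 of the 26 members with at least 20 UMIs in the 2 classes, 1 point per library with its exact 95% counting interval. Dashed lines mark 0.5 and 2. Both libraries place Cacng2, Cacna2d1, Cacna1b, Cacna1a, Cacng3 and Scn1a left of 0.5 and Cacnb3, Cacna1d and Cacng5 right of 2.

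The T-type genes, which open near rest and support bursts, had 2 of 3 members lower in MHb-like neurons, against 8.58% of 12548 genes. Cacna1i stood at 19.8 and 24.4 CPM against 135 and 98.8 CPM, and Cacna1h at 0.800 and 0.897 CPM against 5.04 and 3.51 CPM. Cacna1h rested on 4 and 5 UMIs against 13 and 8. Cacna1g had ratios of 0.600 and 0.433, short of 2-fold in control, and was not counted. Of 40 channel partners, 34 were measured, with 2 higher and 5 lower in MHb-like neurons, against 5.13% and 8.58% of 12548 genes. Fgf13, which encodes a cytosolic protein that binds sodium channels, stood at 107 CPM against 22.9 CPM in control and 107 against 22.8 CPM in foot shock. Stac, an L-type channel adaptor, stood at 8.40 and 7.35 CPM against 0.388 and 2.64 CPM. Its LHb-like levels rested on 1 and 6 UMIs, and the intervals of its ratios were wide (3.68 to 875 and 1.18 to 8.04). Among those lower were the Fgf13 relative Fgf11 (7.40 and 7.17 against 41.1 and 31.6 CPM), the potassium channel Kcnq3 (0.800 and 0.897 against 21.7 and 19.3 CPM) and the scaffold Akap5 (2.80 and 1.97 against 10.5 and 6.59 CPM).

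Promoter windows are shown for 2 genes near absent from MHb-like neurons and 1 gene higher there, to set sequence beside expression. RefSeq windows on GRCm38.p6 were matched for 29 of 37 members, with 40 start sites, and the 250 bases before the start were read for each. Capitals mark GGGCGG, the GC box bound by Sp factors, or its reverse complement CCGCCC. The windows of Cacna2d1 (chr5:15934441-15934690, plus strand), Cacna1b (chr2:24763153-24763402, minus strand) and Cacng5 (chr11:107915056-107915305, minus strand) lie outside the annotated gene bodies.
Cacna2d1: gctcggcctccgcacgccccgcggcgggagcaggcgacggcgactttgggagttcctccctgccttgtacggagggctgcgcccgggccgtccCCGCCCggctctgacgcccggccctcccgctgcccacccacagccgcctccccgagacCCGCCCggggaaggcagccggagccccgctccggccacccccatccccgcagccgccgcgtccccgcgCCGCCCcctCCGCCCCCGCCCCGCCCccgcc
Cacna1b: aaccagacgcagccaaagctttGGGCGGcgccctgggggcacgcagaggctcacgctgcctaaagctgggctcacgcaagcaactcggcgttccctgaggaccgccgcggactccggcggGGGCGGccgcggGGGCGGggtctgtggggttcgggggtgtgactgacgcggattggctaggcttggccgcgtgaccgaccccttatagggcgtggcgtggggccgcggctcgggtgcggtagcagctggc
Cacng5: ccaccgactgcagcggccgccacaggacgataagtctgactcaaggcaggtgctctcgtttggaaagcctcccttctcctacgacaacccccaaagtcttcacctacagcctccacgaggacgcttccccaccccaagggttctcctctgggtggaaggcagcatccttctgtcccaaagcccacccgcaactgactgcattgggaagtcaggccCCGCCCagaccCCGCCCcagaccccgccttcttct
The GC box occurred 6 times in the Cacna2d1 window, overlaps included, 3 times in that of Cacna1b and 2 times in the Cacng5 window shown. A second Cacng5 window (chr11:107911363-107911612) held 0. In the 3 windows shown, the GC box was present on both sides of the comparison. On both strands it was found in 15 of 40 member windows (37.5%) and in 32.7% of all 32851 windows of this length. TATAAA was in 2 of 40 member windows against 12.4% of all. TTCAGCACC, part of the element bound by the neuronal gene repressor REST, was in 0 of 40, against 0.301% of all windows.

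Levels also differed within the MHb-like and LHb-like classes. Re-clustering gave 8 MHb-like and 8 LHb-like subclusters, called by number and, where both genes of a listed pair were at their highest, by the pair. These names are MHb 0 (Synpr and Chat, the latter for acetylcholine synthesis), MHb 2 (Cck and Avil, Tac1 and Wif1), MHb 3 (Nppa and Syt15), MHb 6 (Ebf3 and Prox1), LHb 1 (Peg10 and Tmem255a), LHb 2 (Cacna2d1 and Megf11) and LHb 4 (Sst and Mctp1). LHb 0 was led by Sv2c and Chrm2 and LHb 5 by Ret and Cxcl13. MHb 1 and LHb 3 were led by the same genes (Pam, Clasp2, Hsf2, Abhd2 and Fn3krp) and are not described as subtypes.

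Scn8a, the main α subunit of mature axon initial segments, stood at 336 (304 to 370) and 289 (262 to 318) CPM in the Synpr and Chat subcluster. It stood at 42.9 and 33.8 CPM in MHb 2, 60.0 and 51.9 CPM in MHb 3 and 34.2 and 39.2 CPM in MHb 5, which was led by Sema3d and Luzp2. Scn1a was high in MHb 0 and MHb 6 as well, with 133 and 103 CPM in MHb 0 and 147 CPM in both libraries in MHb 6, against 5.58 and 11.9 CPM in MHb 3 and 16.3 and 4.13 CPM in MHb 5. Scn9a stood at 9.14 CPM (4.56 to 16.4) and 6.88 CPM (3.30 to 12.7) in MHb 0, and at 114 and 92.9 CPM in MHb 2, 82.3 and 75.6 CPM in MHb 3 and 87.8 and 84.7 CPM in MHb 5. The intervals of MHb 0 and of MHb 2, 3 and 5 did not overlap for any of these 3 genes in either library. MHb 6, with 199 and 205 CPM of Scn8a, held 42.7 and 32.2 CPM of Scn9a, close to MHb 4 (46.7 and 29.5 CPM).

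LHb-like subclusters also differed in these 3 genes. Scn1a stood at 323 and 292 CPM in LHb 0 and 276 and 212 CPM in LHb 5, but at 50.5 and 42.1 CPM in the Peg10 and Tmem255a subcluster and 13.9 and 19.1 CPM in the Sst and Mctp1 subcluster. Scn8a was at 213 and 185 CPM in LHb 0 and 319 and 230 CPM in LHb 5, against 83.7 and 53.2 CPM in LHb 1 and 27.7 and 19.1 CPM in LHb 4. Scn9a was at 21.8 and 30.8 CPM in LHb 0 and 24.6 and 13.9 CPM in LHb 5, against 132 and 115 CPM in LHb 1 and 116 and 127 CPM in LHb 4. LHb 2 held the most Scn1a (493 and 405 CPM) with Scn9a at 36.3 and 50.6 CPM. LHb 6 held both, with 255 and 129 CPM of Scn1a and 88.7 and 129 CPM of Scn9a.

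Cacna1a, Cacna1b, Cacna2d1 and Cacng2 were low in all 8 MHb-like subclusters, none of which passed 4.59, 4.74, 7.53 and 4.95 CPM of these genes in either library. Among LHb-like subclusters their spread was wide. Cacna1a stood at 119 CPM (75.7 to 179) and 86.8 CPM (44.8 to 152) in LHb 2 and at 82.9 and 73.1 CPM in LHb 5, but at 1.74 and 0 CPM in LHb 1 and 4.62 and 0 CPM in LHb 4, where 0 UMIs allow up to 6.64 and 9.53 CPM. Cacna1b stood at 171 and 152 CPM in LHb 2 and 99.8 and 90.0 CPM in LHb 6, against 0 and 1.92 CPM in LHb 0. Cacng2 was spread more evenly, from 54.0 CPM in LHb 7 to 172 CPM in LHb 6 in control and from 38.1 CPM in LHb 4 to 185 CPM in LHb 5 in foot shock.

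Cacna2d1 is one of the genes that named LHb 2, so its level there (607 and 434 CPM) is a description of that name. Outside it, LHb 6 held 194 and 257 CPM, LHb 3 held 64.6 and 62.9 CPM, and LHb 0 held 2.56 and 5.77 CPM. LHb 1 held 6.97 and 0 CPM and LHb 4 held 4.62 and 0 CPM. LHb 2 was also shallow, with medians of 1395 and 1268 UMIs per cell, and held 1.15 counts of Pou4f1 per 10000, the lowest of the LHb-like subclusters. LHb 6 was next lowest, with 2.62. Without LHb 2 the log2 ratio of Cacna2d1 between MHb-like and LHb-like neurons was -3.63, and the count of lower members was again 7. Cacnb3 had its lowest LHb-like level in LHb 2 (119 and 188 CPM) and its highest in LHb 4 (670 and 702 CPM). Outside the habenula classes, Cacna1a was at 115 and 121 CPM and Cacna2d1 at 166 and 121 CPM in thalamus-like neurons, while Cacnb3 was at 85.4 and 83.0 CPM.

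**Figure D3:**
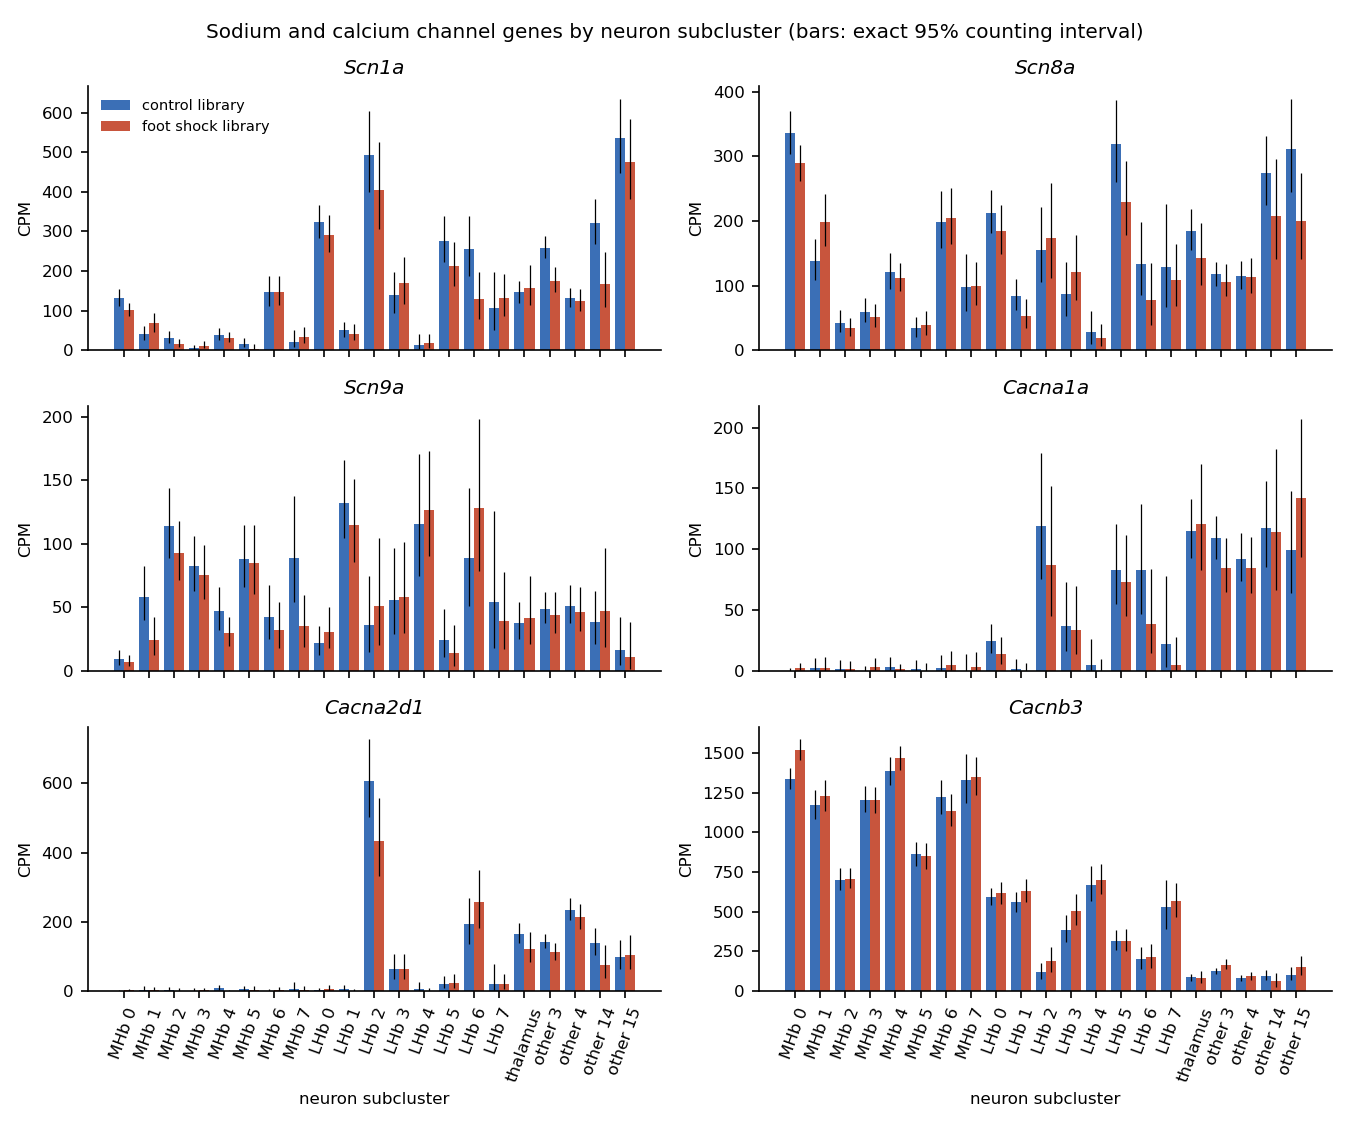
CPM of 6 channel genes (panels) in the neuron subclusters (x axis), with blue bars for the control and red bars for the foot shock library and exact 95% counting intervals. Scn8a is tall in MHb 0 (336 and 289 CPM) where Scn9a is short (9.14 and 6.88 CPM), Cacna1a and Cacna2d1 are near 0 across the MHb-like subclusters, and Cacnb3 is above 700 CPM in all of these.

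The TARP Cacng5 was uneven too. It stood at 121 and 140 CPM in MHb 0, 123 and 145 CPM in MHb 6 and 103 and 169 CPM in MHb 7, against 9.90 and 14.1 CPM in MHb 2 and 3.25 and 4.13 CPM in MHb 5. Cacna1e stood at 651 and 541 CPM in MHb 0 and 678 and 508 CPM in MHb 6, against 259 and 182 CPM in MHb 5. Like Cacna1e, the genes Cacnb3, Cacna2d2, Scn3a, Scn3b and Cacng4 were found in every MHb-like subcluster. Cacnb3 ran from 703 to 1386 CPM in control and from 710 to 1523 CPM in foot shock. Cacna2d2 lay between 305 and 463 CPM in control and between 326 and 467 CPM in foot shock, and Scn3b between 116 and 168 CPM in control.

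The make-up of each family shows the shift between subunits within a class, again for the same gene across classes. Cacna1e gave 86.8% and 83.8% of the α1 UMIs in MHb-like neurons, 72.2% and 72.4% in LHb-like neurons and 12.4% and 14.7% in thalamus-like neurons (12.4% with an exact Clopper-Pearson interval of 9.10 to 16.4%). In thalamus-like neurons Cacna1a gave 26.3% and 29.4% and Cacna1b 33.7% and 27.5%. Cacna2d2 gave 98.7% and 98.9% of α2δ UMIs in MHb-like neurons and 76.0% and 81.2% in LHb-like neurons. In thalamus-like neurons Cacna2d1 gave 48.7% of them in control (42.5 to 54.9%).

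Cacnb3 gave 87.7% and 89.2% of β UMIs in the MHb, 72.7% and 77.1% in the LHb, and 16.8% and 16.9% in thalamus-like neurons, where Cacnb4, the β subunit mutated in the lethargic mouse, gave 59.9% and 52.3%. Free RNA held 661 and 751 CPM of β genes, against 654 and 682 CPM in LHb-like neurons, where Cacnb3 was not above free RNA. Among sodium α genes, Scn3a, often described as an early developmental form, gave 35.1% and 39.3% in MHb-like, 20.7% and 24.6% in LHb-like and 14.4% and 15.1% in thalamus-like neurons. Scn1a gave 6.86% and 6.32% in MHb-like and 19.9% and 16.6% in LHb-like neurons.

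**Figure D4:**
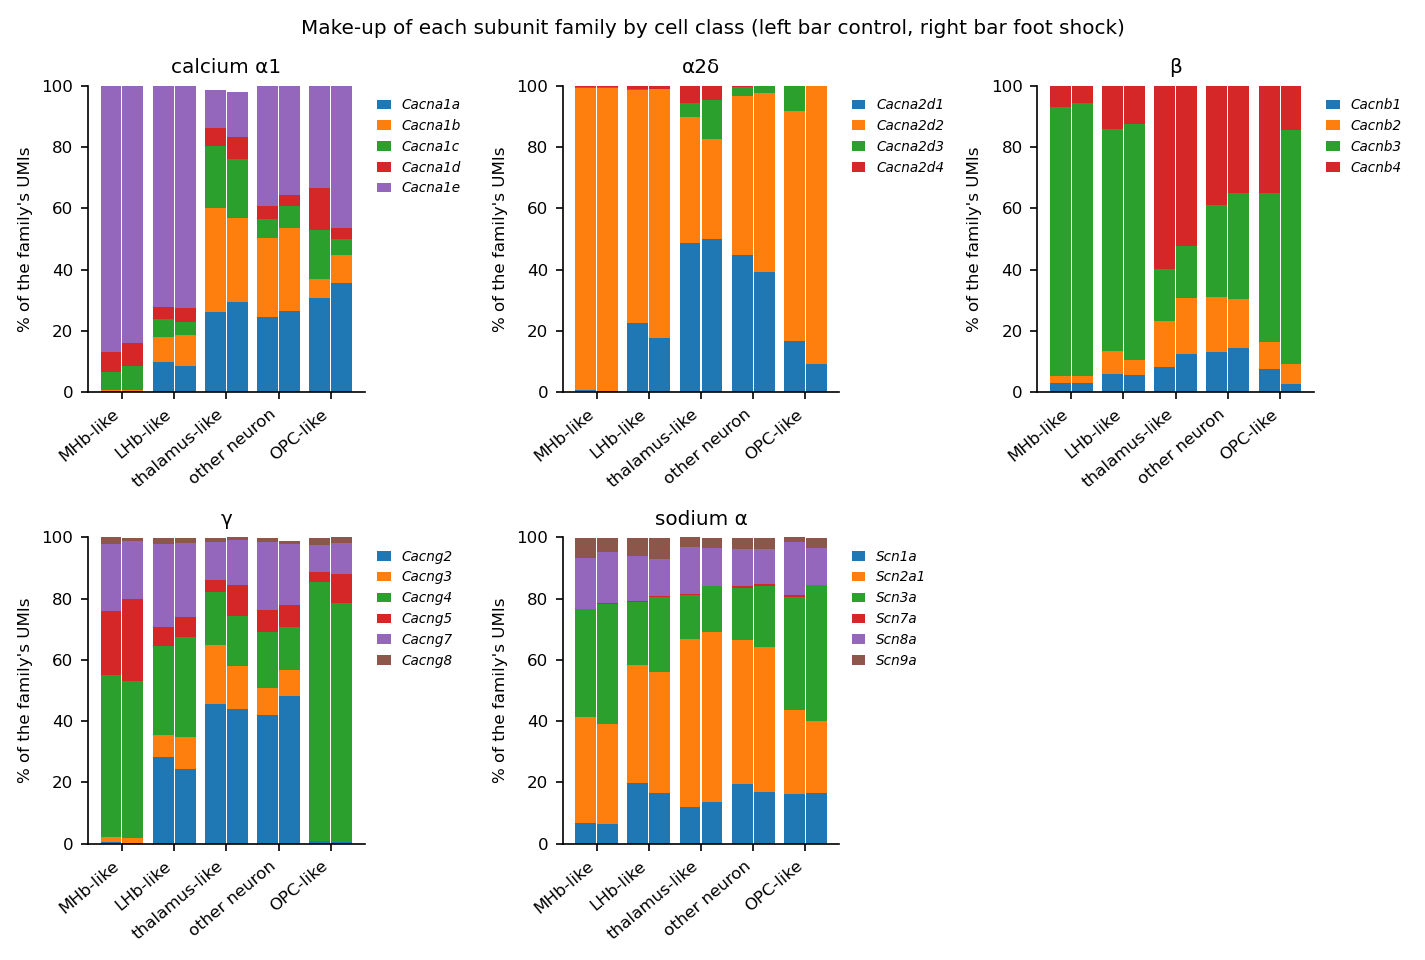
Share of each family's UMIs (percent, stacked) given by each measured member, for 5 of the 6 families, in 5 cell classes, with the control library as the left and the foot shock library as the right bar of each pair. Members with fewer than 20 UMIs are not drawn, which leaves the thalamus-like α1 bars just short of 100. Cacna1e fills 86.8 and 83.8% of the MHb-like α1 bars but 12.4 and 14.7% of the thalamus-like ones.

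Rare members differed between groups too, on few UMIs. Scn7a, an atypical α subunit linked to sodium sensing, had 27 and 12 UMIs in other neurons (9.09 and 7.07 CPM). It had 6 and 5 UMIs in LHb 2 (31.2 and 36.2 CPM) and 0 and 2 UMIs in MHb-like neurons. Cacna2d3 stood at 58.5 and 53.7 CPM in other-neuron cluster 14, which was led by Ctxn3 and Pdyn, and at 1.45 and 0 CPM in other-neuron cluster 3. Scn4b, the β subunit tied to resurgent sodium current, was highest among neurons in cluster 15 (Nr2f2 and Nrxn3 among its leading genes), at 12.4 and 42.2 CPM. This rested on 3 and 8 UMIs, and the control interval (2.56 to 36.3 CPM) held the control level of LHb 2 (10.4 CPM). Mural-like cells, the contractile cells of vessels, held Scn4b too (46.0 and 36.6 CPM, from 4 and 3 UMIs) and the L-type pore Cacna1c (138 CPM, 71.3 to 241, and 85.3 CPM, 34.3 to 176), the pore of the vascular calcium current.

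OPC-like cells are the dividing precursors of oligodendrocytes, receive synapses and are known to carry voltage-gated channels. They held more Cacng4 and Cacna1a than MHb-like and LHb-like neurons summed. Cacng4 (chr11:107732357-107794557, minus strand) stood at 986 and 699 CPM in OPC-like cells, against 142 and 146 CPM in MHb-like and LHb-like neurons summed, ratios of 6.96 (6.12 to 7.89) and 4.77 (3.95 to 5.72). It gave 84.7% and 78.0% of γ UMIs in these cells. With each cell thinned to 1000 UMIs, 63.7% and 53.4% of OPC-like cells had a Cacng4 UMI (71.7% and 67.0% unthinned), against 14.8% and 14.3% of MHb-like cells (46.6% and 40.5% unthinned). In oligodendrocyte-like cells, where this gene lay below free RNA, with medians of 2067 and 1845 UMIs, the thinned shares were 0.114% and 0.544% (0.278% and 1.09% unthinned). Committed precursor-like cells held 128 and 126 CPM and oligodendrocyte-like cells 1.27 and 8.37 CPM.

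The other genes counted as higher were Cacna1a and the TARP Cacng8. Cacna1a stood at 76.5 and 107 CPM in OPC-like cells against 13.5 and 8.28 CPM in the neurons, ratios of 5.69 (3.52 to 8.88) and 12.9 (7.40 to 21.6), and the free RNA held 8.60 and 7.26 CPM. LHb-like neurons alone held 37.2 and 23.7 CPM of Cacna1a, LHb 2 held 119 and 86.8 CPM, and thalamus-like neurons 115 and 121 CPM. Cacng8 rested on 8 and 3 UMIs, and its interval held 1 in foot shock. It did not lie above free RNA in both libraries in OPC-like cells or in any other class. In all 3 of 26 measured members were at least 2-fold higher in both libraries and 9 lower, against 12.2% and 11.8% of 12770 genes. The median log2 ratio was -0.75 over the members and 0.01 over all genes.

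Of the 9 lower genes, Cacnb3 (119 and 315 against 929 and 1037 CPM), Scn2b (126 and 160 against 602 and 368 CPM), Cacna1e (82.7 and 139 against 394 and 327 CPM) and Scn2a1 (126 and 144 against 347 and 319 CPM) had intervals below 1 in both libraries. Scn9a, Cacng2 and Cacnb1 rested on 2 to 6 UMIs in control and 1 to 4 in foot shock. Cacng3 and Cacna2d4 had 0 UMIs in OPC-like cells, which allows up to 9.18 and 16.0 CPM, so a difference for Cacna2d4 (1.85 and 1.91 CPM in neurons) was not detectable at this depth, nor one for Cacng3 in foot shock (14.4 CPM in neurons). Scn3a was kept at 168 and 272 CPM against 284 and 318 CPM, and Scn1a at 73.5 and 101 CPM against 114 and 87.6 CPM. Neuronal RNA was present in these cells: the 7 MHb markers summed to 404 and 1510 CPM, with none of them at 0 in both libraries and none above free RNA, and the 8 LHb markers to 1010 and 1099 CPM, with 3 above free RNA. Its part in the levels of the genes shared with neurons was not tested. Of the partners, 2 of 34 were higher in OPC-like cells and 8 lower, against 12.2% and 11.8% of 12770 genes. The higher ones were Kcnq3 (70.4 and 74.7 against 7.92 and 6.24 CPM) and Lrp1, a receptor that binds α2δ proteins (655 and 581 against 74.8 and 86.7 CPM).

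Foot shock against control was compared within class, counting a member at 1.5-fold or more. In MHb-like neurons 0 of 22 members were higher and 2 lower, against 3.06% higher and 4.70% lower of 11744 genes. In LHb-like neurons 0 of 25 were higher and 3 lower, against 4.04% and 6.58% of 10939 genes. The median log2 ratio was -0.09 over the members and -0.04 over all genes in MHb-like neurons, and -0.20 and -0.04 in LHb-like neurons.

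Scn2b (chr9:45117782-45130070, plus strand), a β subunit that is disulfide-linked to the α subunit, carried the clearest difference. It stood at 608 and 383 CPM in MHb-like neurons, a ratio of 0.629 (0.595 to 0.665). In LHb-like neurons it stood at 591 and 333 CPM, a ratio of 0.564 (0.517 to 0.616), and in other neurons at 530 and 277 CPM, a ratio of 0.523 (0.470 to 0.580). It was lower in the foot shock library in 8 of 8 MHb-like subclusters, 8 of 8 LHb-like subclusters and all 5 groups of other and thalamus-like neurons, which share the 2 libraries and are not replicates. Free RNA moved with it, from 443 to 215 CPM, and its part in the cells' difference was not tested. Subtracting free RNA at 5% of each class total gave log2 ratios of -0.66 in MHb-like and -0.82 in LHb-like neurons, beside -0.67 and -0.83 without subtraction. The 5% was a set value, and the share of free RNA in the cells was not estimated. The subtraction therefore does not measure the part of free RNA.

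The other genes past 1.5-fold had few UMIs. In MHb-like neurons Cacng8 had 33 and 20 UMIs (ratio 0.543, 0.296 to 0.976), near its free RNA level. In LHb-like neurons Cacna1a stood at 37.2 and 23.7 CPM (ratio 0.637, 0.448 to 0.898) and Cacna1c at 21.7 and 12.3 CPM (ratio 0.566, 0.346 to 0.906). LHb 2 held the most of both genes, and it made up 126 of 663 control and 87 of 657 foot shock cells. With subclusters weighted equally the count of lower members was again 3, but these were not the same genes. Cacna1a then fell just short of 1.5-fold, and Cacnb2 was counted in its place. Cacna1a was lower in foot shock in 8 of 8 LHb-like subclusters and Cacna1c in 6 of 8, some on few UMIs. The cause of these differences was not tested. When other neurons holding 2 LHb markers were taken into the class, 1 member was lower in place of 3. Cacna1e stayed under 1.5-fold, at 458 and 378 CPM in MHb-like neurons (ratio 0.826, 0.778 to 0.877) and 270 and 202 CPM in LHb-like neurons. Cacnb3 differed little, with 1163 and 1245 CPM in MHb-like neurons.

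In other neurons, 1 of 28 members was higher (Scn4b, 10 UMIs in each library) and 2 lower (Scn2b and Cacng8, 15 and 5 UMIs), against 3.97% and 6.74% of 11076 genes. In oligodendrocyte-like cells 3 of 14 were higher and 2 lower, against 5.09% and 14.0% of 9096 genes, and all 5 had intervals that held 1 and levels under their free RNA.

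In OPC-like cells 6 of 15 members were higher in foot shock and 0 lower, against 15.5% higher and 18.5% lower of 5065 genes. They were Cacnb3 (119 and 315 CPM), Cacna2d2 (82.7 and 208 CPM), Scn3b (33.7 and 90.7 CPM), Cacng5 (36.7 and 85.3 CPM), Cacna1e (82.7 and 139 CPM) and Scn3a (168 and 272 CPM), on 11 to 55 UMIs in control and 16 to 59 in foot shock. Of these 6, only Cacng5 and Scn3a lay above free RNA in OPC-like cells in both libraries. The summed MHb markers in these cells stood at 404 and 1510 CPM, and the 8 oligodendrocyte markers at 569 and 1366 CPM. Their part in the result was not tested. Among OPC-like cells without a UMI of any MHb marker, 190 in control and 57 in foot shock, 3 members were higher and 3 lower. The log2 ratios were 0.61 for Cacnb3, 0.84 for Cacna2d2 and 1.26 for Cacna1a, and -0.74 for Cacna1e, -1.56 for Cacnb4 and -0.825 for Scn2b. Scn3a stood at -0.08, and Scn3b and Cacng5 had no value there. Summed over all members, microglia-like cells held 410 and 1364 CPM and endothelial-like cells 402 and 1528 CPM, whereas oligodendrocyte-like cells held 298 and 305 CPM, astrocyte-like cells 564 and 668 CPM and mural-like cells 851 and 707 CPM. Cacng4 was at 986 and 699 CPM, a ratio of 0.709 that did not pass 1.5-fold, and at a log2 ratio of -0.18 in the cells without MHb marker UMIs.

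**Figure D5:**
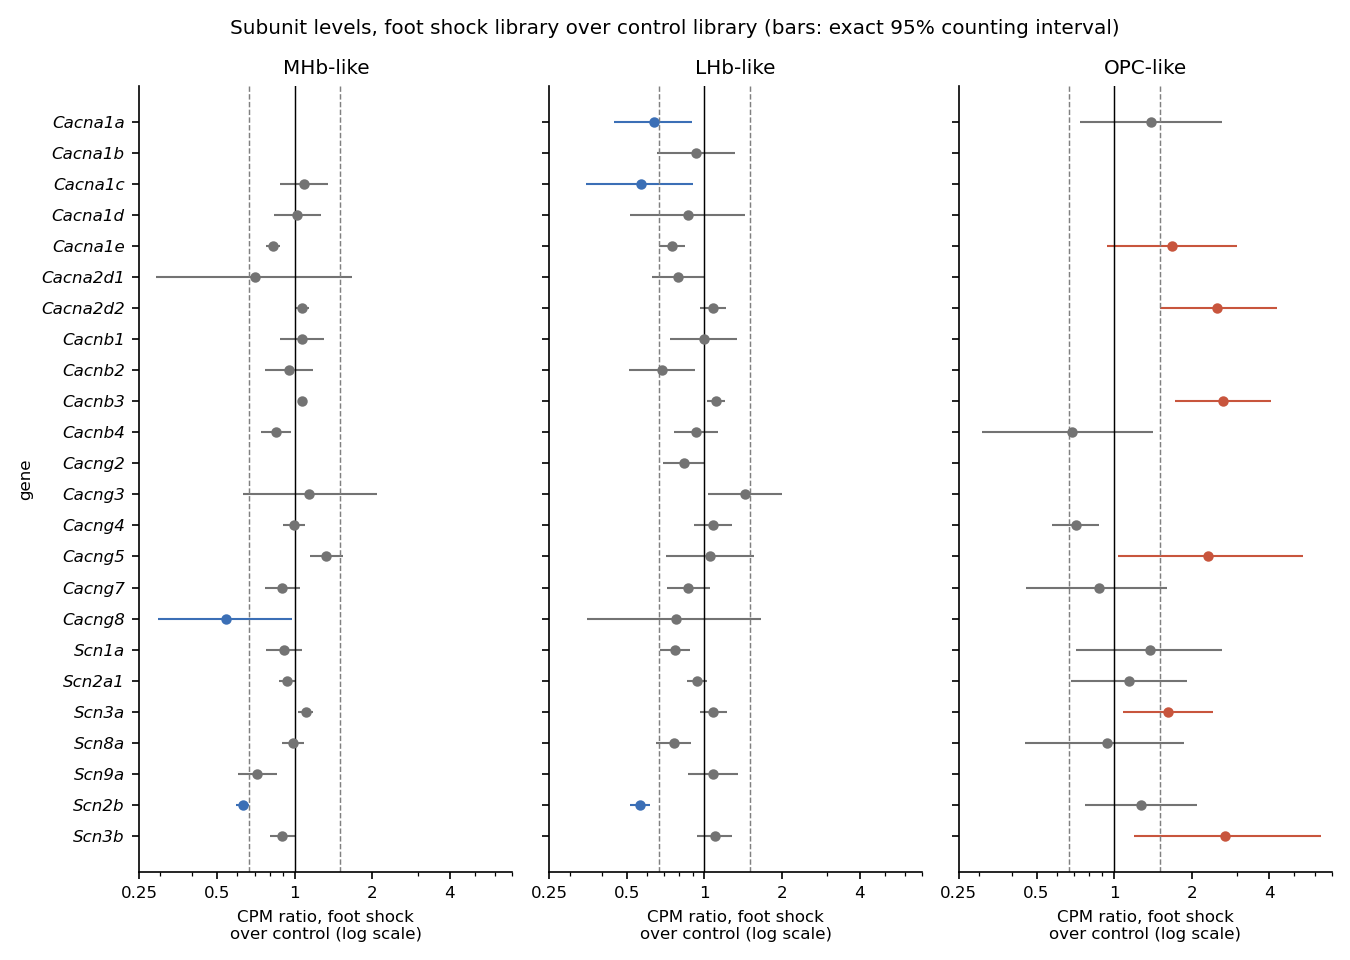
Ratio of CPM in the foot shock over the control library (log axis) for members described here with at least 20 UMIs in MHb-like, LHb-like and OPC-like cells (panels), with exact 95% counting intervals. Dashed lines mark 1.5-fold, red points are higher and blue points lower by that rule. Scn2b lies at 0.629 and 0.564 in the 2 habenula neuron classes with narrow intervals, and the 6 red OPC-like points have wide ones.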

How the data were processed

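Per the labels' protocols, habenula cells were captured with 3' version 2 droplet chemistry. Cell Ranger 2 and the mm10 build are named in the submitters' processing notes, with no annotation release. The authors deposited raw UMI counts, with no normalization, for each gene in each of 737280 barcodes. Gene positions come from GENCODE vM21 (GRCm38) by identifier.

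Cells had at least 1000 UMIs, 500 to 6000 genes and at most 20% mitochondrial UMIs. Scrublet in scanpy 1.11.5 (expected rate 0.08) removed 242 control and 80 foot shock cells. Both libraries were clustered together (2000 variable genes without the members, 30 components, 15 neighbours, Leiden resolution 1.0). A cluster was named when it held at least 3 of a list's markers; habenula names also needed 1 count of Pou4f1 per 10000. All neurons were re-clustered together before naming, a step added to the planned re-clustering of MHb-like and LHb-like cells. Mixed clusters were left out (12 and 111 cells). A rebuilt name can differ from the study's own.

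UMIs were summed per class and library. Intervals are exact (Poisson, conditional binomial, Clopper-Pearson); 0 UMIs is given the limit of 3 counts. Class differences were counted at 2-fold in both libraries, foot shock at 1.5-fold, each with 20 UMIs. The computations were tested on simulated counts. TMM factors came from edgeR 4.0.16. Measured members (20 UMIs) are named, except that some results are not reported here; of partners, at most the 4 with the largest ratio in each direction. Members and lists were chosen with earlier results of these data known. Of 14 alternatives, 3 were added after seeing the data.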

Additional observations from a re-analysis of the deposited data

How the results depend on the processing

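The counts of members higher (3) and lower (7) in MHb-like against LHb-like neurons stayed within 1.5 times under the alternatives run, except that a 1.5-fold rule gave 6 higher. Over these alternatives the log2 ratio ran from -5.12 to -3.73 for Cacna1a, from -5.78 to -2.95 for Cacna2d1 and from 1.17 to 1.68 for Cacnb3. Of OPC-like against neurons, 4 members in place of 9 were lower with at least 2000 UMIs per cell, where Cacng2 turned to a log2 ratio of 0.16; the log2 ratio of Cacng4 ran from 1.74 to 2.82. For foot shock in MHb-like neurons, cells of at least 500 UMIs left 1 lower member in place of 2, and in LHb-like neurons 2 LHb markers left 1 in place of 3; the log2 ratio of Scn2b ran from -0.71 to -0.63 and from -0.91 to -0.73.

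The foot shock count in OPC-like cells (6 higher, 0 lower) was not stable. It was 3 higher and 2 lower with at least 2000 UMIs, with doublets kept and with a mean over cells, 1 and 2 with at least 500 UMIs, and 3 and 3 without MHb marker UMIs. Log2 ratios turned for Cacna1e (-0.51 with at least 500 UMIs, -0.057 as a mean over cells, -0.74 without MHb marker UMIs), Cacng5 (-0.015) and Scn3b (-0.31) with at least 500 UMIs, and Scn3a (-0.081) without MHb marker UMIs; the cause was not tested. OPC-like cells were shallow, with medians of 1200 and 1183 UMIs, which limits what their counts can show. No paired analysis was possible because each group is 1 library, and for the same reason no replicate could be left out. Of 167 levels compared, 157 with doublets kept and 137 at resolution 2.0 had a value, since some subclusters called by a gene pair were not found again.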
